A study of Mus musculus with 9 samples.

Results

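The transcripts described here are those of the TGF beta and activin signal at its outer end, namely the ligand genes Tgfb1, Tgfb2 and Tgfb3, the activin subunit genes Inhba and Inhbb, the receptor genes Tgfbr1, Tgfbr2 and Tgfbr3, and the inhibitor gene Smad7. They were picked by gene symbol, 9 of the 53342 genes in the deposited table, and all 9 passed the filter on low counts that left 19640 genes for testing. RNA came from whole lung of mice labelled C57BL/6, in 9 samples that form 3 groups of 3. The titles of the normoxia and hypoxia samples read WT, while those of the PTH group read PTH in its place. The normoxia group comprised replicates 2, 3 and 5. The hypoxia group, replicates 1, 2 and 5, spent 3 weeks in a chamber at 10% oxygen, a standard way to raise pulmonary arterial pressure in mice. The group called hypoxia with PTH, replicates 3, 4 and 5, is listed with the same 10% oxygen and 3 weeks. It was given residues 1–34 of parathyroid hormone, a peptide that acts through a receptor coupled to cAMP, at 40 µg/kg per day. The stated purpose was to learn how PTH affects pulmonary hypertension. Saline injections of a sham group are mentioned, without naming its samples, and neither age nor a separate animal for each sample is given, so a p-value here reflects how much samples differ, which may be technical.

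TGF beta is secreted in a latent complex, bound to LTBP proteins in the matrix, and is set free by integrins, proteases or thrombospondin. The active dimer binds the type II receptor TGFBR2, which recruits and phosphorylates the type I receptor TGFBR1, and this kinase in turn phosphorylates SMAD2 and SMAD3. Activins, dimers of the INHBA or INHBB subunits, use other type I and type II receptors but end at the same SMADs. In lung the pathway is known for matrix deposition by fibroblasts and for remodelling of the vessel wall under low oxygen.

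Totals ran from 40234030 to 58391086 counts per sample. Summed epithelial markers, which include surfactant and club cell genes, ran from 39030 to 49120 CPM (counts scaled to the library size) in the 9 libraries, so each holds lung tissue. Libraries of a group differed in other tissue and in clock phase. Summed cardiac muscle markers were lowest at 53.4 CPM (PTH replicate 5) and highest at 1667 CPM (hypoxia replicate 5), and summed adipocyte markers stood at 152, 212 and 154 CPM in normoxia replicate 2, hypoxia replicate 2 and hypoxia replicate 5, against 21.6 to 43.8 CPM in the other libraries. The 6 genes of high clock output, Dbp among them, summed to 1363 to 1818 CPM in normoxia replicates 2 and 3 and hypoxia replicates 1 and 2, and to 351 to 613 CPM in the other 5 libraries, which include all 3 given PTH. In whole tissue, fewer cells of a type and less RNA per cell cannot be told apart.

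Across the 3 comparisons, 1 of the 9 genes passed the test in 1 comparison. Tgfbr2, the type II receptor, rose 1.49-fold in hypoxia with PTH against normoxia, where 1 of 9 genes was called beside 1.74% of all genes tested (1.27% higher, 0.468% lower). Tgfbr2 and Tgfb3 had an unadjusted p under 0.05 there, beside 17.2% of all genes. In hypoxia against normoxia, 0 of 9 were called by edgeR's quasi-likelihood test (Benjamini-Hochberg adjusted p under 0.05), beside 0.57% of all genes (0.412% higher, 0.158% lower). Inhbb and Tgfbr2 had an unadjusted p under 0.05 there, beside 11.8% of all genes, and DESeq2 called both among 795 of all genes, while limma-voom and limma-trend called 0. Between hypoxia with PTH and hypoxia, 0 of 9 were called, beside 0% of all genes. There 1 of 9, Tgfb3, had an unadjusted p under 0.05, beside 9.31% of all genes, and DESeq2, limma-voom and limma-trend called 0. Any pair of these comparisons shares a group of samples, so they are not independent of each other.

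**Figure D1:**
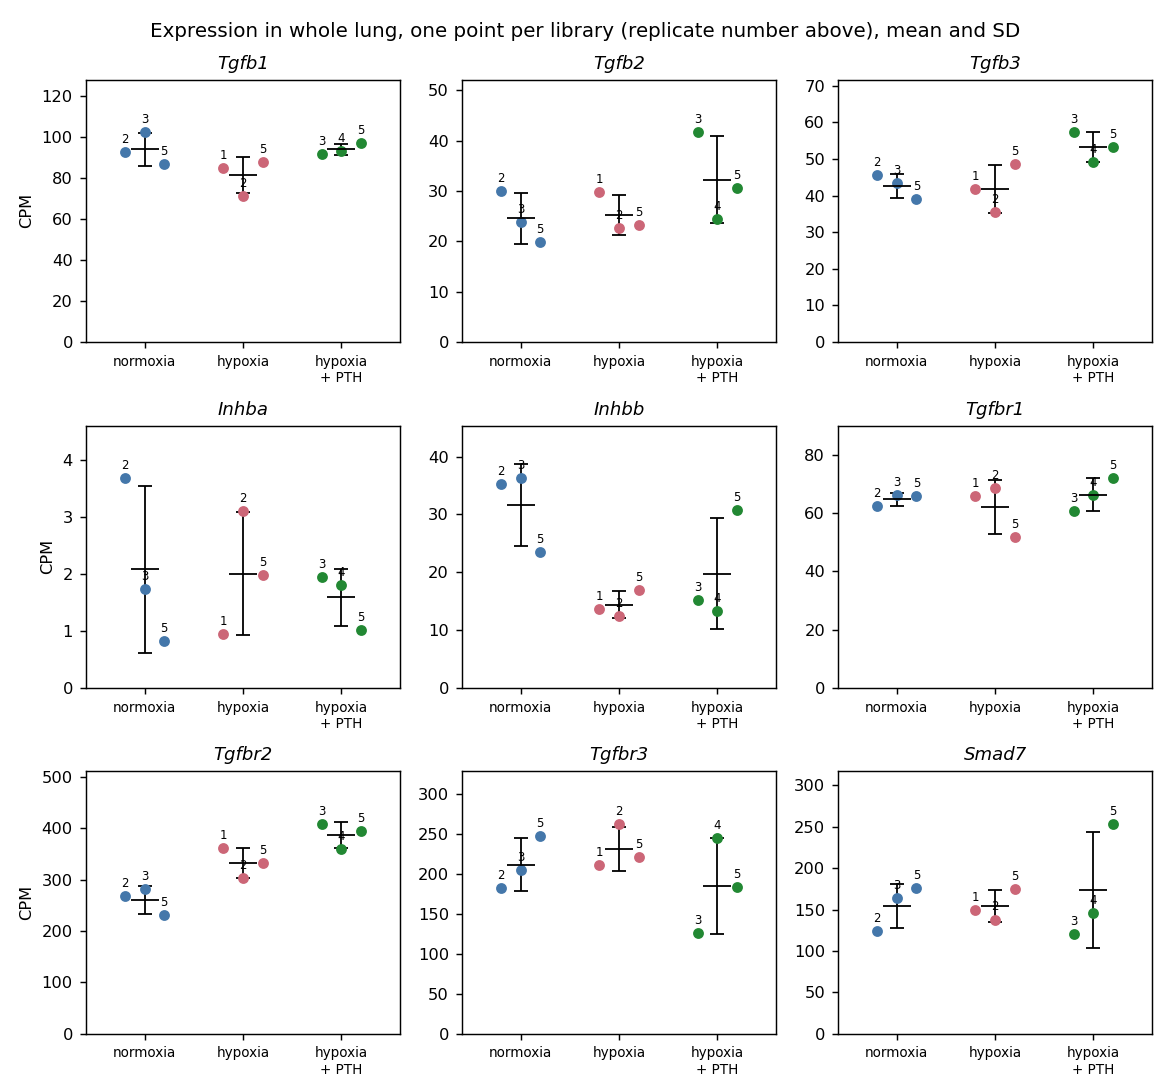
CPM of the 9 genes in each library of whole lung, on linear axes from 0; 1 point per library with its replicate number, the horizontal line being the mean and the bars the SD of 3 libraries. Tgfbr2 lies higher in every hypoxic library than in any normoxic one, Inhbb lies lower in the 3 libraries of hypoxia alone, and PTH replicate 5 stands above its group in Inhbb and Smad7.

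On a scale per transcript length, TPM, the receptors and Smad7 were the more abundant members. Tgfbr2 ranked first with a median of 113.0 TPM over the 9 samples (76.1 to 146.7), followed by Smad7 with 95.1 TPM (73.9 to 156.5) and Tgfbr3 with 92.3 TPM (56.4 to 109). Those 3 were not separated from each other, as Tgfbr2 exceeded Smad7 in 6 of 9 samples and Smad7 exceeded Tgfbr3 in 6 of 9. Tgfb1 was next at 49.4 TPM (38.5 to 54.4), below Tgfbr3 in all 9 samples, then Tgfb3 at 36.2 TPM (28.5 to 49.7) and Tgfbr1 at 27.3 TPM (22.0 to 30.8). Tgfb1 exceeded Tgfb3 in all 9 samples and Tgfb3 exceeded Tgfbr1 in 8 of 9. Inhbb (7.99 to 22.9 TPM) and Tgfb2 (9.28 to 21.1 TPM) shared the next place, Inhbb being the higher in 4 of 9 samples. Inhba came last. It is listed at 0, below the floor of 1 TPM, in 7 of 9 samples, and stood at 1.55 TPM in normoxia replicate 2 and 1.32 TPM in hypoxia replicate 2.

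Tgfb1 (chr7:25687002-25705077, plus strand) encodes the TGF beta isoform made by most immune and vascular cells. It was measured at 92.7, 102 and 86.6 CPM in normoxia, 84.9, 71.2 and 87.6 CPM in hypoxia, and 91.6, 93.0 and 96.7 CPM in hypoxia with PTH, the values following the order of replicates given above. Hypoxia held the lowest library, and the PTH group lay above all 3 libraries of hypoxia alone but within the range of normoxia. The log2 fold change was -0.21 (SE 0.093, edgeR adjusted p = 0.424) in hypoxia against normoxia and 0.21 (SE 0.093, adjusted p = 0.535) in hypoxia with PTH against hypoxia. Against normoxia, the PTH group had a 95% interval of the log2 fold change of -0.21 to 0.21.

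Tgfb2 (chr1:186622792-186705989, minus strand) encodes the isoform that needs the co-receptor TGFBR3 for high-affinity binding. It stood at 29.98, 23.8 and 19.9 CPM in normoxia, 29.8, 22.6 and 23.2 CPM in hypoxia and 41.7, 24.5 and 30.7 CPM in hypoxia with PTH. The highest value was that of PTH replicate 3, and the 3 groups overlapped. On the log2 scale the differences were 0.04 in hypoxia, 0.36 for hypoxia with PTH against hypoxia and 0.39 against normoxia (SE 0.21 each; edgeR adjusted p of 0.975, 0.639 and 0.382).

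Tgfb3 (chr12:86056745-86079041, minus strand) encodes the third isoform, which mouse lung development requires. It was measured at 45.6, 43.4 and 39.1 CPM in normoxia, 41.7, 35.4 and 48.5 CPM in hypoxia, and 57.3, 49.2 and 53.2 CPM in hypoxia with PTH. All 3 PTH libraries lay above the 6 others, although PTH replicate 4 exceeded hypoxia replicate 5 by little. The log2 fold change was 0.34 (SE 0.12, edgeR adjusted p = 0.46) against hypoxia and 0.32 (SE 0.12, adjusted p = 0.2) against normoxia, and neither passed the test. Its 3' end overlaps Ttll5 on the opposite strand, a gene at a mean of 13.4 CPM, and the sources used here do not state whether counting used the strand. Its difference from hypoxia was 0.13 in the libraries with low clock output alone, where hypoxia has 1 library.

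Inhba (chr13:16011851-16031621, plus strand) encodes the beta A subunit of activin A. It was near the low end of the range that can be tested, with 38.0 to 196 counts per library, which are 3.68, 1.73 and 0.824 CPM in normoxia, 0.940, 3.10 and 1.97 CPM in hypoxia, and 1.94, 1.80 and 1.02 CPM in hypoxia with PTH. The groups overlapped throughout. The 3 highest values belong to normoxia replicate 2, hypoxia replicate 2 and hypoxia replicate 5, the same 3 libraries in which adipocyte markers summed to over 150 CPM, and the part of that tissue in the result was not tested. The 95% interval of its log2 fold change was -1.29 to 1.19 in hypoxia against normoxia (edgeR adjusted p = 0.986). With PTH it was -1.60 to 0.92 against hypoxia (edgeR adjusted p = 0.911) and -1.65 to 0.87 against normoxia (edgeR adjusted p = 0.792). Differences of either sign within these bounds are compatible with the data.

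Inhbb (chr1:119415465-119422248, minus strand) encodes the beta B subunit of activin B, and it showed the largest fold among the 9 genes. Normoxia stood at 35.3, 36.3 and 23.5 CPM and hypoxia at 13.7, 12.5 and 16.98 CPM, and the 2 groups did not overlap. With PTH the values were 15.2, 13.4 and 30.8 CPM, so that replicates 3 and 4 resembled hypoxia and replicate 5 lay within normoxia. The log2 fold change was -1.14 (SE 0.31, 0.454 times the level of normoxia) in hypoxia against normoxia, with an edgeR adjusted p of 0.157, and -0.68 (SE 0.31, adjusted p = 0.3) in hypoxia with PTH against normoxia. PTH replicate 5 is in neither of these groups, but its spread enters the fit over all 9 samples. Without it, the log2 fold change of hypoxia against normoxia was again -1.14, with an SE of 0.18 and an edgeR adjusted p of 0.0424. Inhbb was called in 3 of 24 alternatives for this comparison, the others being DESeq2 and the libraries with high clock output. The fit on only the 6 samples compared, which also lacks PTH replicate 5, did not call it. Against hypoxia, the PTH group gave a log2 fold change of 0.46 (SE 0.31, adjusted p = 0.689) with all libraries and -0.01 without PTH replicate 5. Within the libraries with high clock output, hypoxia against normoxia gave -1.45 (edgeR adjusted p = 0.0136). Within those of low clock output, where each of these 2 groups has 1 library, it gave -0.46 (SE 0.63, adjusted p = 0.869). Summed markers of lymphocytes also separated hypoxia (58.2 to 88.2 CPM) from normoxia (128 to 199.9 CPM), as did those of erythroid cells (2979 to 3750 against 4564 to 6066 CPM). With PTH these sums were 51.4 to 99.3 CPM and 2670 to 4074 CPM. In PTH replicate 5, where Inhbb lay within normoxia, they were 68.4 and 4044 CPM, below every normoxia library. The part of these cells in the result was not tested.

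The window around the start of Inhbb, on the minus strand of GRCm38.p6 (the assembly of mm10), is shown because this gene differed most between hypoxia and normoxia. RefSeq windows of 250 bases before to 50 bases after the start were found for 6 of the 9 genes. None of the searched motifs occurs in it on either strand. These were ACGTG and GCGTG, the core to which hypoxia-inducible factors bind, CAGACA and GTCTAGAC, to which SMAD proteins bind, and TGACGTCA, the cAMP response element. Of 32851 mouse promoter windows of that length, 19.6% hold ACGTG, 32.4% GCGTG, 21.0% CAGACA, 0.213% GTCTAGAC and 1.79% TGACGTCA.
Inhbb, chr1:119422199-119422498: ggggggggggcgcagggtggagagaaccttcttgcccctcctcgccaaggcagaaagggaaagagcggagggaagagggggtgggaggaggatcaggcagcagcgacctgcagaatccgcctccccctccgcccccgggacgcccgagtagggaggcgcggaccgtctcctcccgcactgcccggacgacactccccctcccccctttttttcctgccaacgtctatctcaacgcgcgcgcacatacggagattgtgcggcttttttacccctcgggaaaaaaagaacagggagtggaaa

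Tgfbr1 (chr4:47353222-47414931, plus strand) encodes the type I receptor kinase, ALK5. Its level varied least among the 9 genes, with 62.3, 66.2 and 65.7 CPM in normoxia, 65.8, 68.8 and 51.7 CPM in hypoxia, and 60.8, 66.2 and 72.0 CPM in hypoxia with PTH. The groups overlapped, and hypoxia replicate 5 was the lowest library. The 95% interval of the log2 fold change was -0.30 to 0.18 in hypoxia against normoxia, -0.15 to 0.34 in hypoxia with PTH against hypoxia and -0.21 to 0.28 in hypoxia with PTH against normoxia (edgeR adjusted p of 0.895, 0.848 and 0.913).

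Tgfbr2 (chr9:116084293-116175360, minus strand), the type II receptor that binds the ligand, stood at 269, 283 and 231 CPM in normoxia, at 361, 303 and 333 CPM in hypoxia, and at 409, 359 and 395 CPM in hypoxia with PTH. All 6 hypoxic libraries lay above the 3 normoxic ones, while the lowest PTH library lay below the highest of hypoxia alone. The group means were 261 ± 26.7, 332 ± 28.97 and 388 ± 25.6 CPM (SD, n = 3). For the PTH group against normoxia the log2 fold change was 0.57 (SE 0.10, 95% interval 0.34 to 0.80, edgeR adjusted p = 0.0269). It was 0.35 (SE 0.10, adjusted p = 0.176) for hypoxia alone and 0.22 (SE 0.10, adjusted p = 0.537) between the PTH group and hypoxia, so the difference between the 2 hypoxic groups did not pass the test. Leaving out normoxia replicate 2, 3 or 5 or PTH replicate 3 or 5 ended the call, with adjusted p of 0.0735, 0.0696, 0.0544, 0.061 and 0.102, while the log2 fold change kept between 0.49 and 0.63. With the clock score as a covariate the log2 fold change was 0.64 (adjusted p = 0.0763), and with the muscle and fat score it was 0.55 (adjusted p = 0.0747).

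Summed markers of fibroblasts and pericytes were also higher in the hypoxic libraries than in normoxia. The 12 fibroblast markers summed to 3416 to 4791 CPM in normoxia, 4889 to 5895 CPM in hypoxia and 4896 to 5122 CPM in hypoxia with PTH. With PTH against normoxia 7 of the 12 had a log2 fold change above 0, beside 47.4% of all genes. Of the 12, 3 were called higher there and 0 lower, beside 1.27% and 0.468% of all genes. Among the 12, 4 (Col1a1, Col1a2, Col3a1 and Dcn) also belong to the other pathway genes described below. The 8 pericyte markers, of which Postn is also among those pathway genes, summed to 779.8 to 900.1, 1067 to 1296 and 1033 to 1236 CPM in the same order of groups. All 8 had a log2 fold change above 0 in either hypoxic group against normoxia, beside 49.7% and 47.4% of all genes. In each of these comparisons 2 of the 8 were called higher, beside 0.412% and 1.27% of all genes. Endothelial markers overlapped between the groups, at 3846 to 5356, 4033 to 5282 and 4762 to 5517 CPM. The 10 macrophage markers summed to 623.6 to 780.3 CPM in normoxia, 807.1 to 840.6 CPM in hypoxia and 927.4 to 1028 CPM in hypoxia with PTH, without overlap between any pair of groups. In hypoxia against normoxia 6 of these 10 had a log2 fold change above 0, beside 49.7% of all genes, and their median was 0.05. There 0 of the 10 were called, beside 0.57% of all genes. With PTH against normoxia 8 of these 10 had a log2 fold change above 0, beside 47.4% of all genes. Of the 10, 2 were called higher there and 0 lower, beside 1.27% and 0.468% of all genes. The part of these cells in the level of Tgfbr2 was not tested.

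The window around the start of Tgfbr2 is shown because it is the gene that passed the test, again on the minus strand of GRCm38.p6 from RefSeq. Capitals mark GCGTG, which occurs 1 time, at base 113 of the window. None of the other motifs searched occurs in it, and a match of letters is no evidence of binding.
Tgfbr2, chr9:116175314-116175613: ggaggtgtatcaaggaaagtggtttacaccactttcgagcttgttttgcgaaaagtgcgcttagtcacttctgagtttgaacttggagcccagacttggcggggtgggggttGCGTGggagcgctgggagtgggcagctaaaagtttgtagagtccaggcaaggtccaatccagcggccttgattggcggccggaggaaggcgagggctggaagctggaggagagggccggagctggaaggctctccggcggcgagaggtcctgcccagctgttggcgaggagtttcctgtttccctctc

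Tgfbr3 (chr5:107106570-107289629, minus strand) encodes betaglycan, the co-receptor that presents TGF beta and also binds inhibin. It was measured at 182, 205 and 247 CPM in normoxia, 210.3, 262 and 221 CPM in hypoxia, and 126, 245 and 184 CPM in hypoxia with PTH. PTH replicate 3 was the lowest of the 9 libraries and PTH replicate 4 lay among the highest, so the PTH group spanned most of the range of the others. Log2 fold changes were 0.13 in hypoxia, -0.32 in hypoxia with PTH against hypoxia and -0.19 against normoxia (SE 0.22 each, edgeR adjusted p of 0.883, 0.688 and 0.72).

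Smad7 (chr18:75367529-75395935, plus strand) encodes the inhibitory SMAD that targets the type I receptor, and is itself induced by TGF beta. It stood at 124, 164 and 175 CPM in normoxia, 149.6, 138 and 175 CPM in hypoxia, and 121, 146 and 254 CPM in hypoxia with PTH. Normoxia and hypoxia had almost the same mean, 154.6 ± 26.9 and 154.2 ± 18.9 CPM (SD, n = 3), and the 95% interval of the log2 fold change was -0.58 to 0.57. PTH replicate 5 was the highest of the 9 libraries and PTH replicate 3 the lowest. The log2 fold change was 0.17 against hypoxia and 0.17 against normoxia (SE 0.25 each, edgeR adjusted p of 0.898 and 0.806). Without PTH replicate 5 both turned to -0.21.

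**Figure D2:**
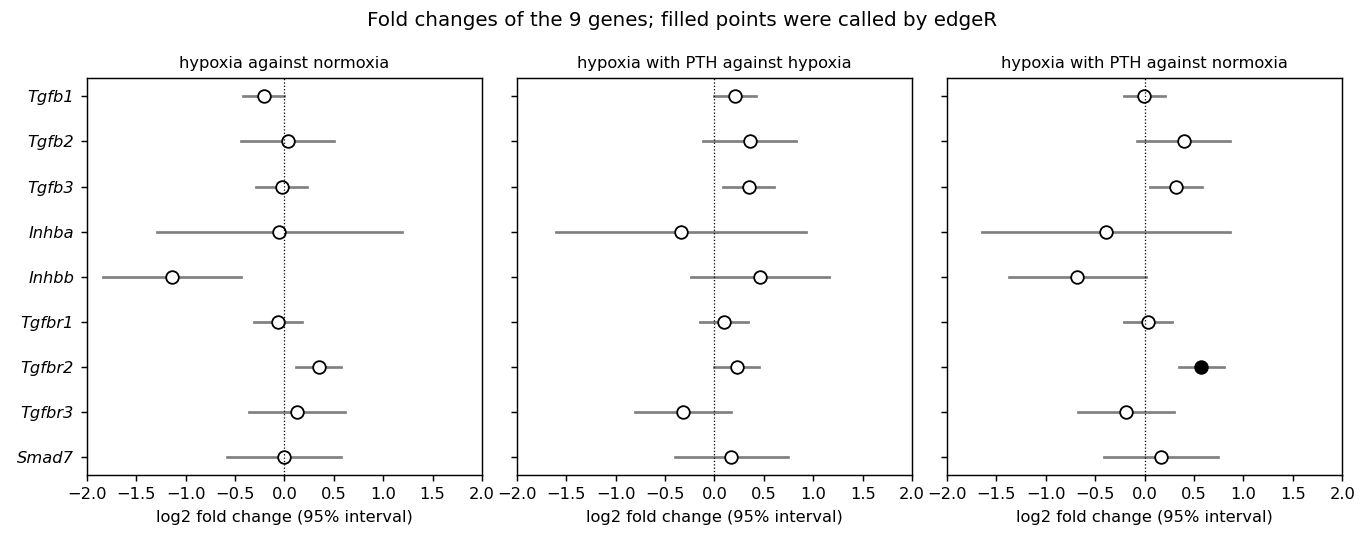
Log2 fold change of each gene with its 95% interval in the 3 comparisons, from edgeR fitted over all genes and 9 samples; a filled point was called at an adjusted p under 0.05. The filled point is Tgfbr2 in hypoxia with PTH against normoxia at 0.57, and Inhbb at -1.14 is the farthest from 0.

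Complete separation of the groups was found for 2 genes in each comparison. In hypoxia against normoxia 2 of 9 did not overlap, Tgfbr2 upward (8.56% of all genes) and Inhbb downward (8.57%), beside 17.1% of all genes in either direction. Between the PTH group and hypoxia 2 of 9 did not, Tgfb1 and Tgfb3, both upward, beside 13.9% (6.6% upward, 7.29% downward). Between the PTH group and normoxia 2 of 9 did not, Tgfb3 and Tgfbr2, both upward, beside 22.8% (11.4% in each direction). With 3 against 3 samples the exact two-sided permutation test on CPM gives 0.1 for such a gene, the smallest p it allows. The median log2 fold change of the 9 genes was -0.03, 0.21 and 0.04 in the 3 comparisons, beside 0.00, -0.01 and -0.01 over all genes tested.

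The balance of receptors was taken per length, since type II and type I receptors signal as a complex. The ratio of Tgfbr2 TPM to Tgfbr1 TPM was 3.44, 3.41 and 2.81 in normoxia, 4.38, 3.52 and 5.14 in hypoxia, and 5.37, 4.33 and 4.37 in hypoxia with PTH. Each hypoxic library had a higher ratio than each normoxic one. Means were 3.22 ± 0.359, 4.34 ± 0.811 and 4.69 ± 0.587 (SD, n = 3), and the exact two-sided permutation p was 0.1 for either hypoxic group against normoxia and 0.6 between them. Adjusted over the 18 tests of 6 such quantities in 3 comparisons, these were 0.225 and 0.635.

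The 3 TGF beta ligands together came to 99.6, 99.8 and 86.8 TPM in normoxia, 98.6, 77.7 and 99.4 TPM in hypoxia and 124, 105 and 112 TPM in hypoxia with PTH. On this scale the PTH libraries lay above all 6 others, with a mean of 114 ± 9.80 TPM (SD, n = 3) against 91.9 ± 12.3 in hypoxia and 95.4 ± 7.44 in normoxia, and the exact permutation p was 0.1 for both (0.225 after adjustment). The TPM lack the TMM library scaling of the CPM. Tgfb1 was 92.7 CPM and 49.4 TPM in normoxia replicate 2, but 93.0 CPM and 51.97 TPM in PTH replicate 4. The small lead of PTH replicate 4 over normoxia may therefore depend on the scale. Summed macrophage markers, given above, were likewise higher in each PTH library than in the 6 others. Against hypoxia, 10 of 10 of these markers had a log2 fold change above 0, beside 47.7% of all genes. Their part in the ligand sum was not tested. Tgfb1 made up 52.5% ± 2.54 of this sum in normoxia, 49.1% ± 0.459 in hypoxia and 46.8% ± 3.41 with PTH (SD, n = 3). The share of Tgfb3 went the other way, from 35.6% ± 1.01 over 37.6% ± 2.24 to 39.4% ± 0.550, with exact permutation p of 0.3, 0.4 and 0.1 for the 3 comparisons.

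**Figure D3:**
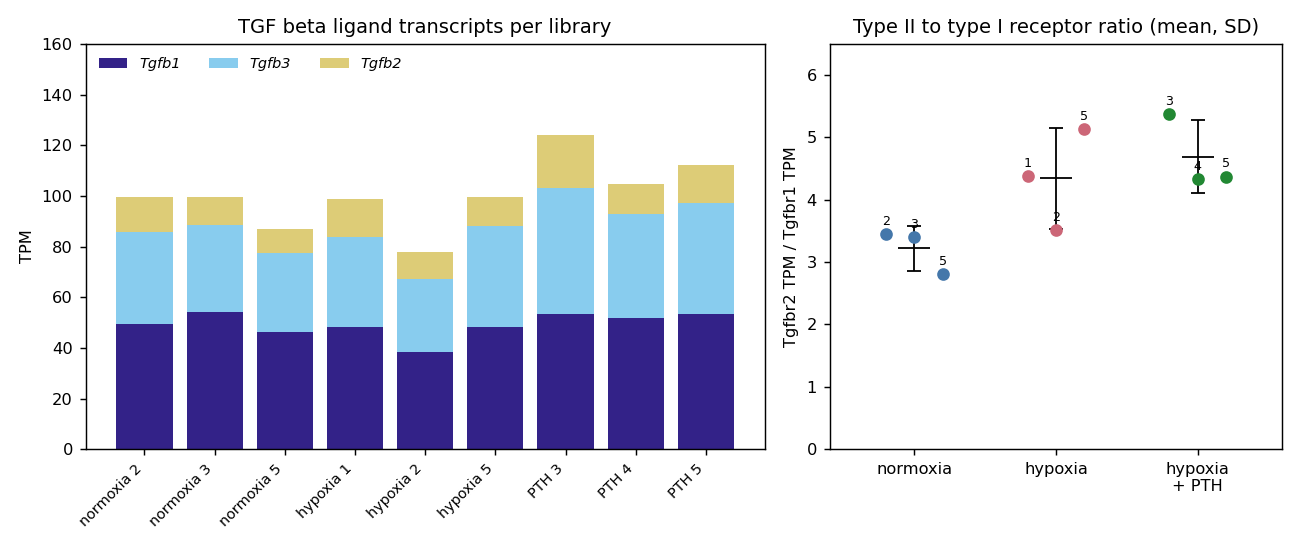
Left, stacked bars of the TPM of Tgfb1, Tgfb3 and Tgfb2 in each library; right, the ratio of Tgfbr2 to Tgfbr1 TPM per library with mean and SD of 3. The 3 PTH libraries have the tallest bars, at 105 to 124 TPM, and the ratio in every hypoxic library is above the highest normoxic ratio of 3.44. The TPM lack the TMM library scaling of the CPM, so the order of bars of like height may depend on the scale.

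Other genes of the pathway were taken from 6 lists of 81 genes in all, 73 of which passed the filter on low counts. The lists were chosen with earlier results of these data known, so their shares beside all genes are a description only. In hypoxia against normoxia, 2 of the 73 rose and 0 fell, which is 2.74% beside 0.57% of all genes, and both belong to the commonly cited targets. Fn1, which encodes fibronectin of the matrix, stood at 264, 301 and 278 CPM in normoxia and 504, 463 and 478 CPM in hypoxia, which is 0.78 on the log2 scale (SE 0.079, edgeR adjusted p = 0.0029). Pmepa1, a TGF beta target whose product retains SMAD2 and SMAD3 and so dampens the signal, went from 64.9, 66.0 and 64.4 CPM to 103, 82.2 and 98.2 CPM, or 0.54 on the log2 scale (SE 0.097, adjusted p = 0.0475). The call of Pmepa1 was lost when any 1 of 7 libraries was left out (all but hypoxia replicate 2 and PTH replicate 5; adjusted p up to 0.183). Over the 73 genes, 20 had an unadjusted p under 0.05, beside 11.8% of all genes, and the median log2 fold change was 0.11, beside 0.00 over all genes.

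Between the PTH group and hypoxia, 0 of the 73 were called by edgeR, beside 0% of all genes. An unadjusted p under 0.05 was found for 12 of them, beside 9.31% of all genes, and DESeq2 called 3 of them and 156 of all genes, while limma-voom and limma-trend called 0. The median log2 fold change was 0.10, beside -0.01 over all genes. Without overlap, 14 of the 73 lay higher in the PTH group than in hypoxia and 2 lower, beside 6.6% and 7.29% of all genes. Among the 14 were Pmepa1 (0.31, SE 0.096, edgeR adjusted p = 0.438), Itgb6 (0.79, SE 0.21, adjusted p = 0.426) and Tnc (0.89, SE 0.24, adjusted p = 0.426). Fn1, Col3a1 and Ltbp1 were among them too.

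With PTH against normoxia, 7 of the 73 rose and 0 fell, 9.59% beside 1.74% of all genes. This share too is a description, given how the lists were chosen. Of the 26 targets, 4 rose. Fn1 reached 528, 546 and 572 CPM with PTH (log2 fold change 0.97, SE 0.080, edgeR adjusted p = 0.000576) and Pmepa1 112, 109 and 129 CPM (0.85, SE 0.097, adjusted p = 0.0037), and these 2 calls survived the loss of any 1 library. Col3a1, a fibrillar collagen that is also among the fibroblast markers above, went from 230.1, 207 and 234 CPM in normoxia to 501, 535 and 652 CPM (1.33, SE 0.24, adjusted p = 0.0324), with hypoxia replicate 2 at the normoxic level of 218 CPM. Tnc, which encodes the matrix protein tenascin C, went from 12.97, 7.53 and 12.2 CPM to 27.6, 20.03 and 31.3 CPM (1.27, SE 0.24, adjusted p = 0.034). With 1 library left out, the log2 fold change stayed at 1.21 to 1.41 for Col3a1 and 1.06 to 1.43 for Tnc. The call of Col3a1 was lost without any 1 of the 6 normoxia and PTH libraries (edgeR adjusted p up to 0.116). The call of Tnc was lost without any 1 of these other than PTH replicate 4 (edgeR adjusted p up to 0.123).

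Among the 16 genes of the latent complex and its activation, 2 rose in hypoxia with PTH against normoxia, where 1.74% of all genes were called, and 0 in the other 2 comparisons, where 0.57% and 0% were. Ltbp1, whose product ties latent TGF beta to the matrix, stood at 83.8, 104 and 89.1 CPM in normoxia, 125, 125 and 120 CPM in hypoxia and 132, 138 and 133 CPM with PTH. Its log2 fold change was 0.54 (SE 0.083, edgeR adjusted p = 0.0161) with PTH and 0.42 (SE 0.083, adjusted p = 0.0615) in hypoxia alone, and the former call was lost without normoxia replicate 2 (0.0572) or PTH replicate 5 (0.0585). Itgb6, the beta subunit of the epithelial integrin that activates latent TGF beta, stood at 18.1, 19.1 and 19.1 CPM in normoxia, 20.4, 15.6 and 30.9 CPM in hypoxia and 43.4, 34.5 and 37.9 CPM with PTH. The 3 PTH libraries were above all others (log2 fold change 1.04, SE 0.21, adjusted p = 0.0419), and the call was lost without any 1 library except hypoxia replicates 2 and 5 (adjusted p up to 0.137).

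Among the 10 other ligands, of which 5 could be tested, Gdf11, whose protein also signals through SMAD2 and SMAD3, was called. It was rare, at 2.74, 1.97 and 2.10 CPM in normoxia, 4.01, 4.37 and 4.16 CPM in hypoxia and 3.57, 5.94 and 4.61 CPM with PTH. The log2 fold change of 1.05 with PTH against normoxia (SE 0.22, edgeR adjusted p = 0.0491) was called only with all libraries or without PTH replicate 3 (adjusted p up to 0.143 in the 8 other cases), and that of hypoxia alone was 0.88 (SE 0.22, adjusted p = 0.12). Of the 8 activin and accessory receptors, 0 were called in any comparison. Eng, which encodes the endothelial co-receptor endoglin, stood at 648, 783 and 845 CPM in normoxia and 395, 377 and 501 CPM in hypoxia, which did not overlap (-0.84, SE 0.23, adjusted p = 0.159). Tdgf1, the co-receptor of Nodal, stood at 1.20 to 2.90 CPM in normoxia and 3.48 to 4.78 CPM in hypoxia (0.85, SE 0.31, adjusted p = 0.289).

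Of the 6 tested antagonists, 0 were called. Bambi, a receptor decoy without kinase, stood at 33.7, 36.5 and 30.9 CPM in normoxia and 24.1, 27.5 and 24.1 CPM in hypoxia without overlap (-0.42, SE 0.096, edgeR adjusted p = 0.0944). Fst, which encodes follistatin, the protein that traps activins, gave 0.50 (SE 0.23, adjusted p = 0.436). Of the 15 tested SMADs and intracellular regulators, Pmepa1, which is also counted with the targets, was called and the median log2 fold change of the list was 0.01 in hypoxia and 0.00 with PTH against normoxia.

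**Figure D4:**
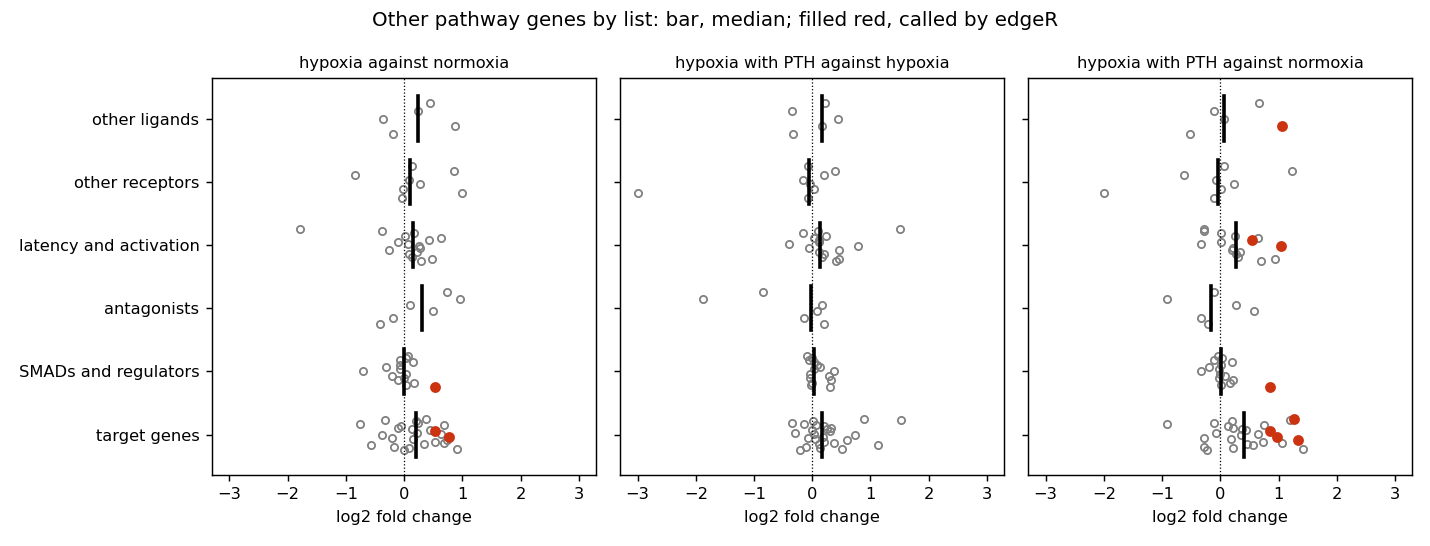
Log2 fold change of the 73 other pathway genes by list in the 3 comparisons, 1 point per gene, with the list's median as a bar and genes called by edgeR filled; genes in more than 1 list, such as Pmepa1, appear in each. Filled points lie to the right of 0, 2 genes in hypoxia and 7 in hypoxia with PTH against normoxia.

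**Figure D5:**
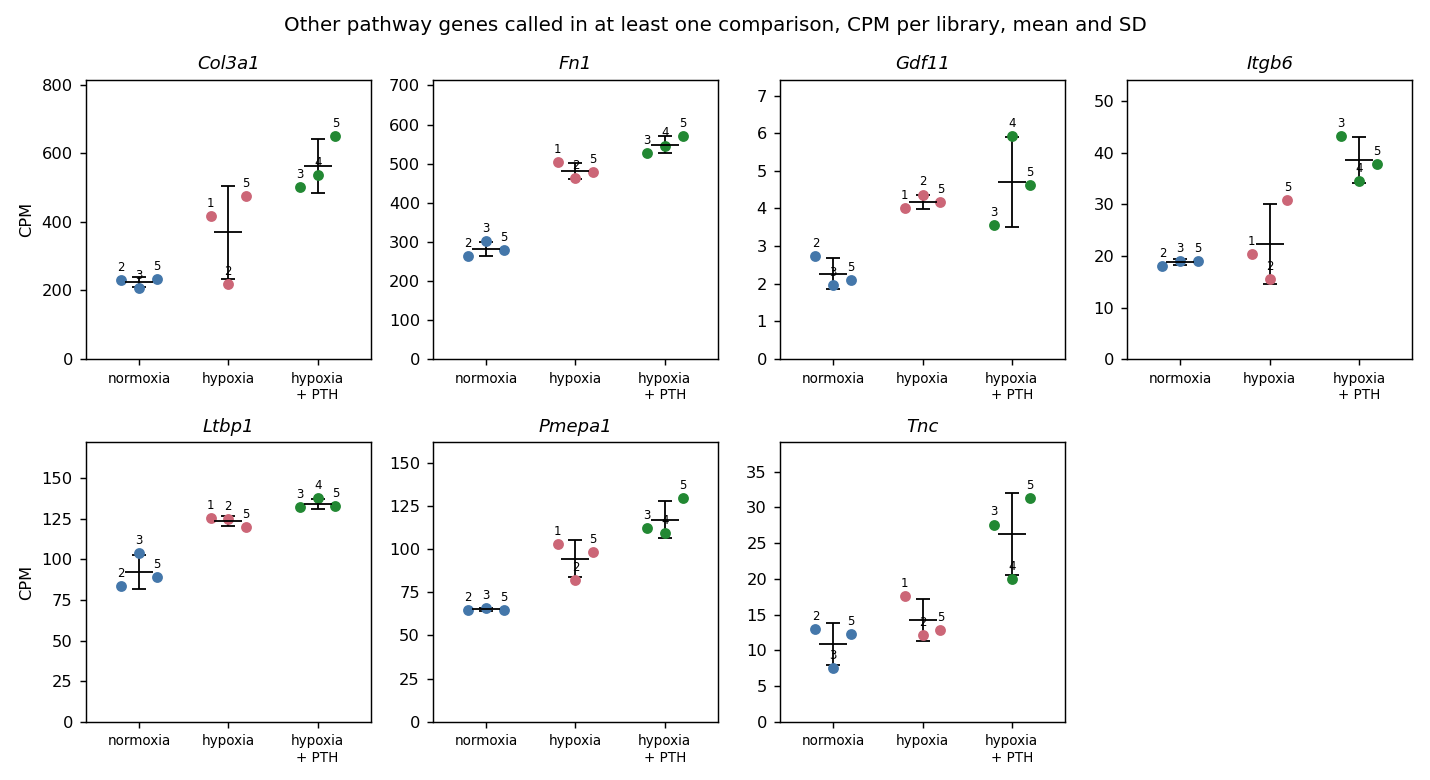
CPM per library of the 7 pathway genes called in at least 1 comparison, on linear axes from 0, with mean and SD of 3 and replicate numbers. The values with PTH lie above every normoxic value for each gene, and hypoxia replicate 2 stays near the normoxic level for Col3a1 (218 CPM).

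The genes whose levels ran most alike to a member over the 9 samples were sought among 11714 genes of at least 5 CPM on average, for the 3 members whose level varied most. For Inhba these were Acaa2 (r = 0.95), F13a1 (0.94) and Akr1b8 (0.92), for Inhbb Dpt (0.98), Hes1 (0.95) and Zfp746 (0.94), and for Smad7 Foxred1 (0.95), Urgcp (0.93) and Pcyt2 (0.92), where r is the correlation of log2 CPM over 9 samples. Dpt is 1 of the 12 fibroblast markers, but its own range was narrow, 139 to 199 CPM, against 12.5 to 36.3 CPM of Inhbb. These values are a description from a search over many genes in 9 samples, with no test, and the points share the libraries' tissue makeup and clock phase.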

How the data were processed

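Poly(A) RNA from whole lung was sequenced with a strand-specific kit, per the labels' protocols. Trimmomatic 0.39, STAR 2.7.9a and mm10 are named in the submitters' processing notes. Which counter and annotation the authors used, and whether counting was stranded, is not given in the sources used here. Estimated counts were deposited (11.6% of those above 0 were whole, within 1e-06) and then rounded. Small whole counts (1 to 20) were even in 88.9% of cases, so both mates of a fragment may have been counted. The deposited log2 values are of TPM, floored at 1 TPM, and ratios and level orders use them.

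Counts of all 9 samples were fitted in 1 model with edgeR 4.0.16 (R 4.3.3; TMM, filterByExpr with minimum count 10 and total 15, robust quasi-likelihood F test, 6 residual degrees of freedom). P was adjusted over 19640 genes by Benjamini-Hochberg, with a threshold of 0.05. CPM use TMM library sizes. The common biological coefficient of variation was 0.204. DESeq2 1.42.0, limma 3.58.1, other scalings and filters, 2 scores per library and each library left out were tried. One score averages the centred log2 CPM of cardiac and fat markers. The other, for the clock, subtracts Arntl, Npas2 and Clock from 6 genes of high clock output.

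The members and gene lists were chosen with earlier results of these data known. All 9 genes are described. Of each other list, every called gene is named, and where it has none, the 2 with the smallest unadjusted p in hypoxia against normoxia.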

Additional observations from a re-analysis of the deposited data

How the results depend on the processing

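The call of Tgfbr2 in hypoxia with PTH against normoxia held in 13 of 23 alternatives, with log2 fold changes of 0.49 to 0.75 and adjusted p from 2.68e-05 to 0.192. Among these 13 is the main fit read at an adjusted p under 0.1, which could not lose the call. The count of members called there fell from 1 to 0 with limma-trend on the deposited log2 values, with the replicate block, with either library score as a covariate and in the libraries with low clock output, and was 0 to 1 with a library left out. In hypoxia against normoxia it was 2 with DESeq2, 1 in the libraries with high clock output and 0 to 1 with a library left out. Between hypoxia with PTH and hypoxia it was 0 in every alternative tried. Of 630 member fold changes under alternatives, 63 changed sign, 0 of them for the called value, and 11 of 27 pairs of a member and a comparison had none.

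Replicate numbers are not stated to pair the samples. Residuals of same-numbered samples correlated at 0.14 (normoxia and hypoxia 2), 0.00 (normoxia and PTH 3) and -0.03 (normoxia and hypoxia 5). The other values were 0.11 (normoxia and PTH 5) and -0.10 (hypoxia and PTH 5). Such values cannot decide whether samples were paired, since the residuals also carry tissue makeup and clock phase. With the replicate number as a block, 0 members and 0 other pathway genes were called in any comparison, and 8 of all genes in hypoxia against normoxia and 17 in hypoxia with PTH against normoxia. The block leaves fewer residual degrees of freedom than the 6 of the main fit. Hypoxia replicate 1 and PTH replicate 4 share their number with no other sample. The loss of calls therefore cannot decide whether samples were paired either. The block turned Inhba to 0.52 and 0.0066 in these 2 comparisons and Tgfb2 to -0.045 in the former.

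Other pathway genes called in hypoxia against normoxia (2) were 12 with DESeq2, 4 at an adjusted p under 0.1, 1 with DESeq2 size factors, with upper quartile scaling, with limma-voom, with limma-trend, in the 6 samples compared and with the clock score, 0 within either clock side, and 1 to 4 with a library left out. For hypoxia with PTH against hypoxia (0) they were 3 with DESeq2. For hypoxia with PTH against normoxia (7) they were 20 with DESeq2, 17 at 0.1, 12 without a filter, 3 with limma-trend and with the muscle and fat score, 2 with the clock score, 0 on the low clock side, and 2 to 9 with a library left out.

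Of all genes, hypoxia against normoxia (112) gave 795 with DESeq2, 324 at 0.1, 198 without a filter, 37 with limma-trend, 4 on the low clock side and 50 to 158 with a library left out. Hypoxia with PTH against hypoxia (0) gave 156 with DESeq2, 1 with limma-trend, 1 on the low clock side and 0 to 1 with a library left out. Hypoxia with PTH against normoxia (341) gave 1422 with DESeq2, 833 at 0.1, 156 with limma-trend, 143 with the muscle and fat score, 76 with the clock score, 7 on the low clock side and 81 to 359 with a library left out.

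Sign changes of log2 fold changes that were not called were as follows. In hypoxia against normoxia, the clock score as a covariate gave 0.027 for Inhba and 0.024 for Smad7, limma-voom 0.043 and 0.0039, limma-trend 0.06 for Smad7 and 0.018 for Tgfb3, and library totals 0.0027, no filter 0.0046 and the muscle and fat score 0.21 for Smad7. The low clock side gave 1.26 for Inhba, 0.020 for Tgfb1, 0.31 for Tgfb3 and -0.16 for Tgfbr3, and the high side -0.037 for Tgfb2 and 0.068 for Tgfbr1. Between hypoxia with PTH and hypoxia, the clock score gave 0.12 for Inhba and -0.029 for Smad7, the muscle and fat score 0.92 for Inhba, -0.29 for Smad7 and -0.026 for Tgfbr1, and the low side -0.012 for Smad7. Between hypoxia with PTH and normoxia, the clock score gave 0.15 for Inhba, -0.0056 for Smad7 and 0.0017 for Tgfb1, the muscle and fat score 0.42 for Inhba, -0.086 for Smad7 and -0.034 for Tgfbr1, and the low side 0.94 for Inhba, -0.014 for Smad7 and 0.12 for Tgfb1. Tgfb1, at -0.001 there, also turned to 0.0057 with DESeq2, 0.0058 with its size factors, 0.085 with limma-trend, 0.0023 with limma-voom, 0.0072 without a filter, 0.0047 in the 6 samples compared and 0.0008 with the stricter filter.

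With a library left out, signs changed for Inhba (-0.50 to 0.65 in hypoxia, -0.67 to 0.11 with PTH against hypoxia, -0.77 to 0.31 against normoxia), Smad7 (-0.14 to 0.097, -0.21 to 0.38, -0.21 to 0.37), Tgfbr1 (-0.14 to 0.060, -0.013 to 0.18, -0.028 to 0.095), Inhbb (-0.0099 to 0.68 with PTH against hypoxia), Tgfb1 (-0.055 to 0.066) and Tgfbr3 (-0.45 to 0.024) with PTH against normoxia, and Tgfb2 (-0.10 to 0.20) and Tgfb3 (-0.14 to 0.079) in hypoxia. Where a fit left 1 sample in a group, that sample is assumed to vary like the others. The causes of these changes were not tested, and 3 samples a group limit the precision of every comparison.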

Other observations

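Some pathway genes that were not called varied widely between libraries, and those named here were picked after their values were seen. Thbs1, which encodes thrombospondin-1, an activator of latent TGF beta, was measured at 472, 446 and 595 CPM in normoxia, 83.5, 189 and 167 CPM in hypoxia, and 218, 334 and 692 CPM in hypoxia with PTH. The 3 libraries of hypoxia alone were the lowest of the 9. On the log2 scale it differed by -1.78 (SE 0.45, edgeR adjusted p = 0.142) in hypoxia against normoxia and by 1.5 (SE 0.45, adjusted p = 0.439) in hypoxia with PTH against hypoxia.

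Timp1, which encodes an inhibitor of matrix metalloproteinases, stood at 4.26, 4.01 and 3.38 CPM in normoxia, 2.62, 3.34 and 3.34 CPM in hypoxia, and 5.91, 7.44 and 13.4 CPM in hypoxia with PTH. The PTH libraries were above all others, by 1.52 on the log2 scale (SE 0.28, edgeR adjusted p = 0.36) against hypoxia and 1.20 (SE 0.28, adjusted p = 0.0669) against normoxia.

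PTH replicate 5, which was the highest library for Smad7, was also the highest of the 9 for Thbs1, Timp1 and Smad6 (397 CPM against 84.7 to 347 CPM). Acvr1c, a type I receptor of adipose tissue, reached 1.05, 1.22 and 1.79 CPM in normoxia replicate 2, hypoxia replicate 2 and hypoxia replicate 5, the libraries with the most adipocyte markers, and at most 0.260 CPM in the others.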
